A study of Homo sapiens with 10 samples.

Results

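The genes described here load and control the MCM helicase, the ring that unwinds DNA ahead of the replication fork. They are 10 genes of the 19962 protein-coding genes on chromosomes 1 to 22 and X: the subunits MCM2, MCM3, MCM4, MCM5, MCM6 and MCM7, the loading factors CDC6 and CDT1, the CDT1 inhibitor geminin (GMNN), and MCM10, which acts when the loaded helicase is activated. They were chosen by name, with earlier results of these data known. The measurement at each was the Rb peak overlapping its promoter. A promoter was taken as 2000 bp upstream to 500 bp downstream of any annotated transcript start. Rb was profiled by CUT&RUN, in which an antibody directs a nuclease to the protein in permeabilised cells and the released DNA is sequenced. High-grade serous ovarian cancer was represented by 2 established cell lines labelled wild type, OVCAR-3 and Kuramochi, and each was given the CDK2 inhibitor INX-315 (300 nM) or DMSO for 2 days. Every one of these 4 groups had 2 Rb libraries, and each line had in addition 1 library made with an IgG2a control antibody under DMSO. A genotype or cell type label cannot be checked against marker genes in peak lists.

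Origins are licensed when CDC6 and CDT1 place a double ring of MCM2 to MCM7 on DNA bound by the origin recognition complex, late in mitosis and in G1. Geminin then holds CDT1 inactive until the next division, so that each origin fires at most once per cycle. Genes for this machinery are textbook targets of the E2F transcription factors. Unphosphorylated Rb binds E2F at such promoters and holds transcription down, and phosphorylation by CDK4, CDK6 and CDK2 releases it. The comparison asked how much Rb sat on these promoters with CDK2 active and with CDK2 inhibited.

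The E2F binding word was present in most of these promoters. It was searched on both strands as the 8-base words TTTCCCGC, TTTCGCGC, TTTGCCGC and TTTGGCGC within 200 bp centred on the median Rb summit. Of the 10 genes, 8 held such a word (MCM2 to MCM7, CDC6 and CDT1), against 6.75% of the 3761 genes with an Rb promoter peak in all 8 libraries. In windows of 1000 bp it was 9 of 10 against 23.9%, GMNN being added through a word that begins 396 bases downstream of its start. MCM10 held none in either window. The window of MCM4 was centred between the positions of its summits, since no library had its summit at the median. The stretches below are shown because they carry the word nearest to the median summit, and that of MCM4 is not shown. They come from the hg38 genome, each 60 bases long and written 5′ to 3′ on the strand of the gene, with the matching bases in capitals. Positions count along the gene, with the first base of the canonical transcript as 0. Overlapping matches on opposite strands in MCM2, MCM5 and MCM6 give longer runs of capitals. A match describes these letters only and is not a measured E2F site.

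MCM2, chr3:127598371-127598430, plus strand, positions -40 to 19 from the start: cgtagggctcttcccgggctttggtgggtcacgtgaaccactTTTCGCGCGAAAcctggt
MCM3, chr6:52284884-52284943, minus strand, positions -201 to -142 from the start: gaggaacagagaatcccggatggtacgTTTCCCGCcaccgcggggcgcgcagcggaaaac
MCM5, chr22:35399918-35399977, plus strand, positions -222 to -163 from the start: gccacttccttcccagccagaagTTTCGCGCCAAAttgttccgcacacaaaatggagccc
MCM6, chr2:135876497-135876556, minus strand, positions -113 to -54 from the start: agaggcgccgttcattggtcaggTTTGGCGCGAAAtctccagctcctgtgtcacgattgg
MCM7, chr7:100101378-100101437, minus strand, positions -40 to 19 from the start: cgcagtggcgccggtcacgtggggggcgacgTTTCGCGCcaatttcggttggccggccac
CDC6, chr17:40287839-40287898, plus strand, positions -40 to 19 from the start: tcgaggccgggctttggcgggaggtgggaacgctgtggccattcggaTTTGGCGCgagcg
CDT1, chr16:88803727-88803786, plus strand, positions -62 to -3 from the start: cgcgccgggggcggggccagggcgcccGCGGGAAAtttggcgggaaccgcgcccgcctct

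Other short words were counted in the same windows. The inverted CCAAT box, bound by NF-Y, or its forward form lay in 5 of the 10 windows of 200 bp (MCM3, MCM5, MCM6, MCM7 and CDC6) against 24.4% of all 3761. The GC box GGGCGG lay in 5 of 10 against 63.0%. The cell cycle homology element TTTGAA, a word of promoters repressed by the DREAM complex, lay in 0 of 10 against 4.52%. The median GC content was 66% for the 10 windows and 68.5% for all, and the median number of CpG pairs was 22 and 19.

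Rb occupied all 10 promoters in every Rb library of both lines, with or without the inhibitor. Among all protein-coding genes 18.8% had a promoter peak in all 8 Rb libraries. Neither IgG2a library had a peak at any of the 10 promoters. Such peaks were rare throughout, at 3 of the 19962 protein-coding genes in OVCAR-3 and 1 in Kuramochi. Each promoter held exactly 1 peak per library, and outside the promoters only 1 further peak was found in the bodies of these genes in any library, in MCM5. All 10 kept a peak in every library when only peaks with a q-value of at most 0.001 were counted, and 7 of 10 did when the lists of a line were shortened to the length of its shortest.

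Peaks were centred close to the transcription start. Relative to the canonical start, the median summit lay upstream at MCM3 (-126 bp), MCM4 (-221 bp), MCM5 (-100 bp), CDC6 (-70.5 bp) and CDT1 (-44 bp). It lay downstream at MCM6 (11.5 bp), MCM7 (73 bp), MCM10 (101 bp), MCM2 (103 bp) and GMNN (226 bp). CDT1 had the most constant position, with the summit at the same base (-44 bp) in 7 of 8 libraries and at 16 bp in the remaining library. MCM4 had the least constant position. Its summits fell from -110 to -88 bp in 4 libraries and from -540 to -332 bp in the other 4, within a peak that was 1518 to 1869 bp wide.

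**Figure D1:**
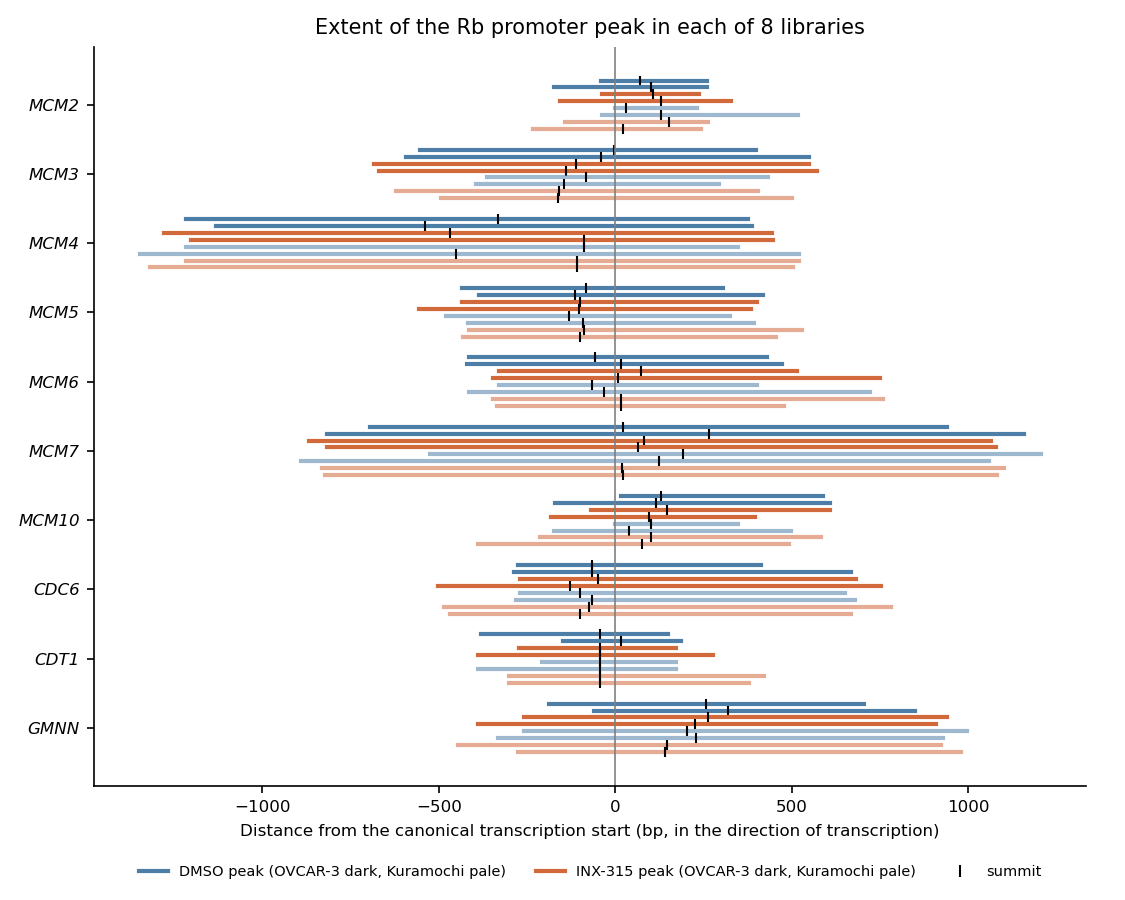
Extent of the Rb peak at each of the 10 promoters. The x axis is the distance from the canonical transcription start in bp along the direction of transcription, each bar is the peak of 1 of the 8 Rb libraries (blue DMSO, orange INX-315, dark OVCAR-3, pale Kuramochi) and each tick is its summit. MCM4 and MCM7 have the widest peaks, and the summits of CDT1 line up in 7 of 8 libraries.

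Some of these peaks lie at the start of a neighbouring gene that is read in the opposite direction. At MCM4 it was PRKDC, which encodes the catalytic subunit of the DNA-dependent protein kinase and has a transcript starting at -763 bp on the other strand. At MCM7 it was AP4M1, a subunit of an adaptor complex in vesicle traffic, at -152 bp. At MCM2 it was a transcript of TPRA1 at -144 bp, although the canonical start of TPRA1 lies at -7678 bp. The peak covered the neighbour's start in 8 of 8 libraries at MCM4 and MCM7 and in 4 of 8 at MCM2. Where it did, the signal cannot be assigned to either gene.

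The level of Rb was read as summit height. The peak caller lists a fold enrichment and a p-value at each summit, and together these fix the whole number of DNA fragments stacked there. That number was divided by the library's mean number of fragments per base, so a height of 50 means 50 times the genome average. Each height is read at a single base, so the width of the peak does not enter it, while copy number of the locus does. At the 10 genes the fragments at a summit ranged from 9 (CDT1, OVCAR-3 INX-315 replicate 1; exact Poisson 95% interval 4.12 to 17.1) to 160 (GMNN, Kuramochi INX-315 replicate 1; 136 to 187). These intervals cover counting error only, and duplicate fragments were kept. Mean coverage was 0.495 and 0.501 fragments per base in OVCAR-3 under DMSO, 0.307 and 0.421 under INX-315, 0.445 and 0.380 in Kuramochi under DMSO, and 0.405 and 0.216 under INX-315, so the shallowest library was Kuramochi INX-315 replicate 2.

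The order of the 10 promoters by mean log2 height over the 8 libraries ran from GMNN (7.58) and MCM7 (7.58) through MCM4 (7.35), CDC6 (7.19), MCM3 (6.94), MCM5 (6.79), MCM6 (6.27), MCM10 (5.75) and MCM2 (5.62) to CDT1 (5.45). Neighbours in this order mostly could not be separated. MCM5 was higher than MCM6 in 8 of 8 libraries (mean log2 difference 0.52 ± 0.41 SD), and MCM6 higher than MCM10 in 8 of 8 (0.52 ± 0.43 SD). MCM4 was higher than CDC6 in 7 of 8, by 0.16 ± 0.19 (SD). For every other pair of neighbours the SD of the difference between libraries, 0.43 to 1.10, was larger than the mean difference of 0.25 or less. Among the 3761 genes bound in all libraries, GMNN ranked 74, MCM7 75 and MCM4 144, whereas MCM10 ranked 2293, MCM2 2592 and CDT1 2985. These ranks are not corrected for copy number.

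**Figure D2:**
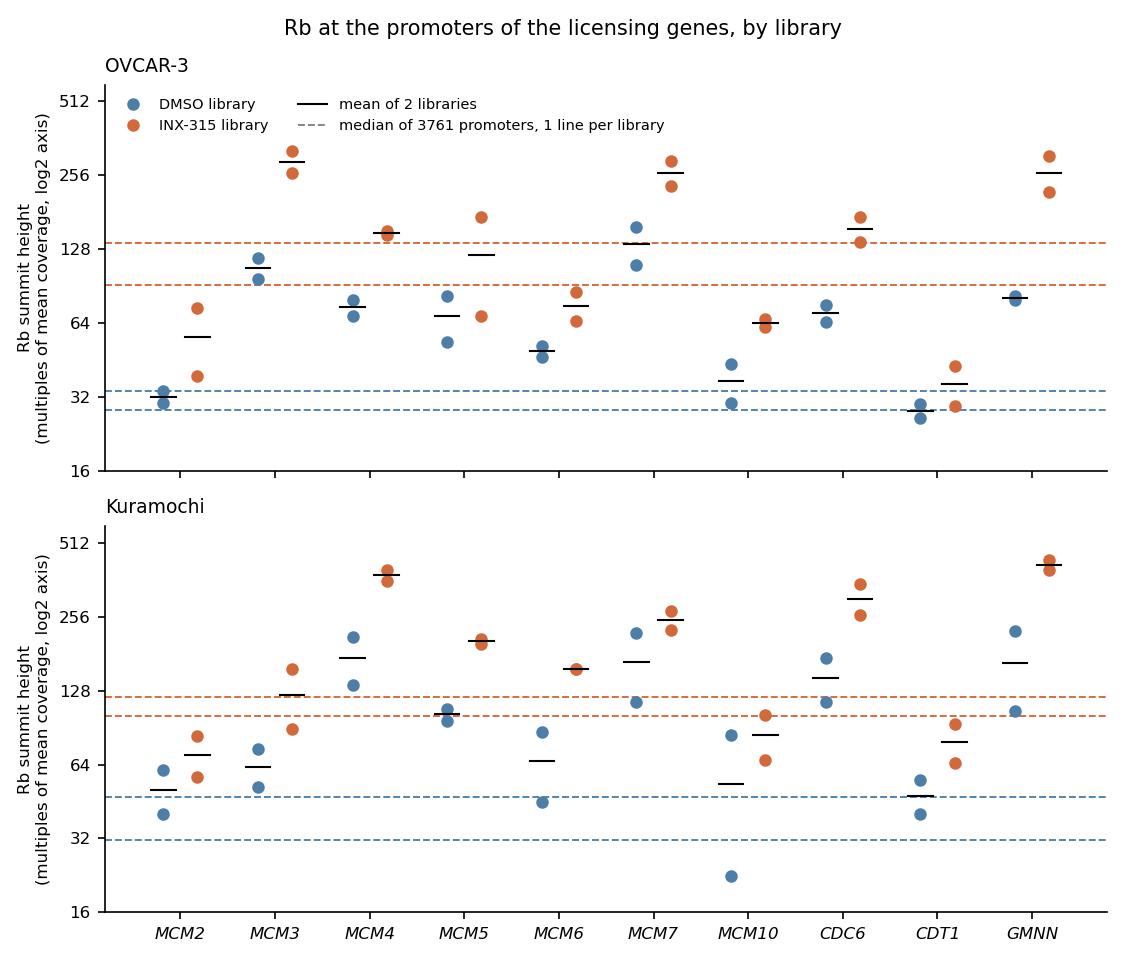
Rb summit height at the 10 promoters, with a panel for each line. The y axis is height in multiples of the library's mean coverage on a log2 axis, points are single libraries, black bars are means of 2 libraries, and dashed lines mark the median of the 3761 genes bound in all 8 libraries, 1 line per library. Under DMSO most points lie above the blue dashed lines. Under INX-315 MCM2, MCM6, MCM10 and CDT1 of OVCAR-3 lie below both orange lines, as do MCM2 and CDT1 of Kuramochi.

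Among the helicase subunits, MCM3 and MCM7 had the highest mean Rb heights in OVCAR-3. MCM3 heights were 97.0 and 118 with DMSO against 261 and 321 with INX-315 in OVCAR-3. In Kuramochi they were 51.7 and 73.7 with DMSO against 88.9 and 157 with INX-315. Both INX-315 libraries lay above both DMSO libraries in each line, and the means stood at a ratio of 2.71 for OVCAR-3 and 1.96 for Kuramochi. MCM7 heights were 111 and 158 with DMSO against 232 and 292 with INX-315 in OVCAR-3. In Kuramochi they were 115 and 219 with DMSO against 225 and 269 with INX-315. Here too the treatments did not overlap, but in Kuramochi the higher DMSO library stood just under the lower INX-315 library.

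At MCM4 and MCM5, as at every member but MCM3 and MCM7, the mean heights were larger in Kuramochi than in OVCAR-3 with either treatment. Under DMSO the log2 difference between the lines did not pass at MCM5 (0.61 ± 0.42 SE, limma adjusted p = 0.400). The test of MCM4 is given with the comparison of the lines. MCM4 heights were 68.7 and 79.8 with DMSO against 147 and 152 with INX-315 in OVCAR-3. In Kuramochi they were 135 and 211 with DMSO against 358 and 398 with INX-315. The treatments were apart in both lines, with ratios of means of 2.01 and 2.19. MCM5 heights were 82.9 and 53.8 with DMSO against 68.5 and 174 with INX-315 in OVCAR-3. In Kuramochi they were 96.6 and 108 with DMSO against 198 and 208 with INX-315. The OVCAR-3 libraries of MCM5 overlapped between treatments, and the wide gap within INX-315 rested on 21 against 73 fragments.

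MCM6 heights were 46.5 and 51.8 with DMSO against 65.3 and 85.6 with INX-315 in OVCAR-3. In Kuramochi they were 44.9 and 86.9 with DMSO against 156 and 157 with INX-315. Its INX-315 mean was 1.53 times the DMSO mean in OVCAR-3 and 2.37 times in Kuramochi. MCM2 was the lowest of the 6 subunits, with 30.3 and 33.9 with DMSO against 39.2 and 73.7 with INX-315 in OVCAR-3. In Kuramochi MCM2 had 40.4 and 60.6 with DMSO against 56.8 and 83.4 with INX-315, where the treatments overlapped. The local background that the caller used at the MCM2 summit was 2.24 to 6.22 times the library mean. At the MCM4 summit it was 1.57 to 4.38 times the library mean. Heights are not divided by the local background, and whether it added fragments at these summits was not tested. With the listed fold enrichment, which does use it, the MCM2 log2 difference over both lines was 0.29 (limma adjusted p = 0.372).

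Of the loading factors, CDC6 was number 4 in the order of heights and CDT1 was last. CDC6, the ATPase that recruits the helicase with CDT1, had 64.7 and 75.8 with DMSO against 137 and 174 with INX-315 in OVCAR-3. In Kuramochi CDC6 had 115 and 174 with DMSO against 259 and 347 with INX-315. Its treatments did not overlap in either line, and the ratios of means were 2.21 and 2.10. CDT1 had 26.3 and 29.9 with DMSO against 29.4 and 42.8 with INX-315 in OVCAR-3, where the treatments overlapped. In Kuramochi CDT1 had 40.4 and 55.3 with DMSO against 93.8 and 64.8 with INX-315.

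GMNN, the inhibitor of licensing, had the largest change of the 10 on the mean-coverage scale and the smallest after centring on the library median. Its heights were 82.9 and 79.8 with DMSO against 219 and 307 with INX-315 in OVCAR-3. In Kuramochi they were 106 and 224 with DMSO against 395 and 435 with INX-315. Its INX-315 mean was 3.23 times the DMSO mean in OVCAR-3 and 2.52 times in Kuramochi, with no overlap. MCM10 had 30.3 and 43.9 with DMSO against 62.0 and 66.6 with INX-315 in OVCAR-3. In Kuramochi MCM10 had 22.5 and 84.3 with DMSO against 66.7 and 102 with INX-315, so that the DMSO libraries of that line bracketed the lower INX-315 library. The local background at MCM10 was 3.36 to 5.32 times the library mean in OVCAR-3 and equal to it in Kuramochi. In fold enrichment over that background MCM10 read 4.40 and 6.41 with DMSO against 8.82 and 12.0 with INX-315 in OVCAR-3, against 7.61 and 23.9 and then 19.9 and 18.9 in Kuramochi.

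Counted over the list, both INX-315 heights were above both DMSO heights at 8 of 10 genes in OVCAR-3 (all but MCM5 and CDT1) and at 8 of 10 in Kuramochi (all but MCM2 and MCM10). Over all 3761 genes the shares were 99.5% and 97.8%. Complete separation in both lines was found at 6 of the 10 (MCM3, MCM4, MCM6, MCM7, CDC6 and GMNN) and at 97.3% of all genes.

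Rb height rose at all 10 promoters over both lines when scaled to mean coverage, by limma on log2 heights with adjustment over all 3761 genes and a threshold of 0.1. The same test called 99.8% of all genes higher, so the calls say nothing particular about the list. The log2 difference averaged over the lines was 1.55 ± 0.28 (SE; adjusted p = 5.11e-08) at GMNN, 1.19 ± 0.30 (6.97e-05) at MCM3, 1.11 ± 0.29 (0.000135) at CDC6 and 1.09 ± 0.29 (0.000149) at MCM4. It was 0.97 at MCM6, 0.87 at MCM10, 0.85 at MCM5 and 0.81 at MCM7, and lowest at MCM2 (0.61 ± 0.30, adjusted p = 0.0456) and CDT1 (0.53 ± 0.30, adjusted p = 0.0809). The median of the 10 was 0.92, a fold of 1.89, beside a median of 1.64 and a fold of 3.12 over all genes tested. All 10 lay below the median of all genes, and 3.06% of all genes had a difference smaller than the median of the list. These p-values lean on a spread that the fit shared among all genes. The sharing does not show that genes had equal spread, because a shift common to a whole library enters the spread of every gene. Library medians did differ within groups, for example 6.51 and 7.08 (log2 height) in OVCAR-3 INX-315. With the spread of each gene alone, MCM2 (adjusted p = 0.118) and MCM10 (0.170) did not pass.

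In OVCAR-3 alone 8 of 10 rose, against 99.0% of all genes, and CDT1 (adjusted p = 0.431) and MCM6 (0.163) did not pass. In Kuramochi alone 8 of 10 rose, against 95.8%, and MCM2 (0.273) and MCM7 (0.110) did not pass. The median log2 difference of the list was 0.90 in OVCAR-3 beside 1.78 for all genes, and 0.96 in Kuramochi beside 1.51. The OVCAR-3 count fell to 4 without DMSO replicate 1 and to 4 without INX-315 replicate 2, and the Kuramochi count fell to 5 without DMSO replicate 1 and to 3 without INX-315 replicate 2.

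Relative to the typical Rb-bound promoter, most of the licensing genes fell under INX-315. When each library was centred on the median of the genes tested, 9 of 10 were lower over both lines (all but GMNN), against 15.5% of all genes called lower. The largest relative falls by limma were at CDT1 (log2 difference -1.15 ± 0.21 SE, adjusted p = 0.000409), MCM2 (-1.07 ± 0.19, 0.000386) and MCM7 (-0.88 ± 0.12, 2.88e-05). MCM5 (-0.83), MCM10 (-0.81), MCM6 (-0.71), MCM4 (-0.59), CDC6 (-0.57) and MCM3 (-0.49) also passed. GMNN did not pass, at -0.13 ± 0.13 (SE, adjusted p = 0.513). With the spread of each gene alone the count was 5 of 10, against 143 of the 3761 genes.

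The same centring gave 8 of 10 lower in OVCAR-3, against 8.83% of all genes, the exceptions being MCM3 (adjusted p = 0.234) and GMNN (0.605). In Kuramochi 3 of 10 were lower, against 5.88%: MCM2 (-1.04), MCM7 (-0.88) and MCM3 (-0.58). With the spread of each gene alone, 0 of 10 passed in either line (6 in OVCAR-3 and 4 in Kuramochi at an unadjusted p under 0.05). Leaving out either INX-315 library of a line left 5 genes for OVCAR-3 and 1 gene for Kuramochi. On the level itself, the median height of the 10 genes was 1.88 and 2.36 times that of all genes tested in OVCAR-3 with DMSO and 1.06 and 1.20 times with INX-315. The Kuramochi values were 2.04 and 2.25 times with DMSO and 1.50 and 1.73 times with INX-315. The median of the 10 was thus above that of all genes in all 8 libraries, by less in each INX-315 library than in any DMSO library, while single members lay below it.

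**Figure D3:**
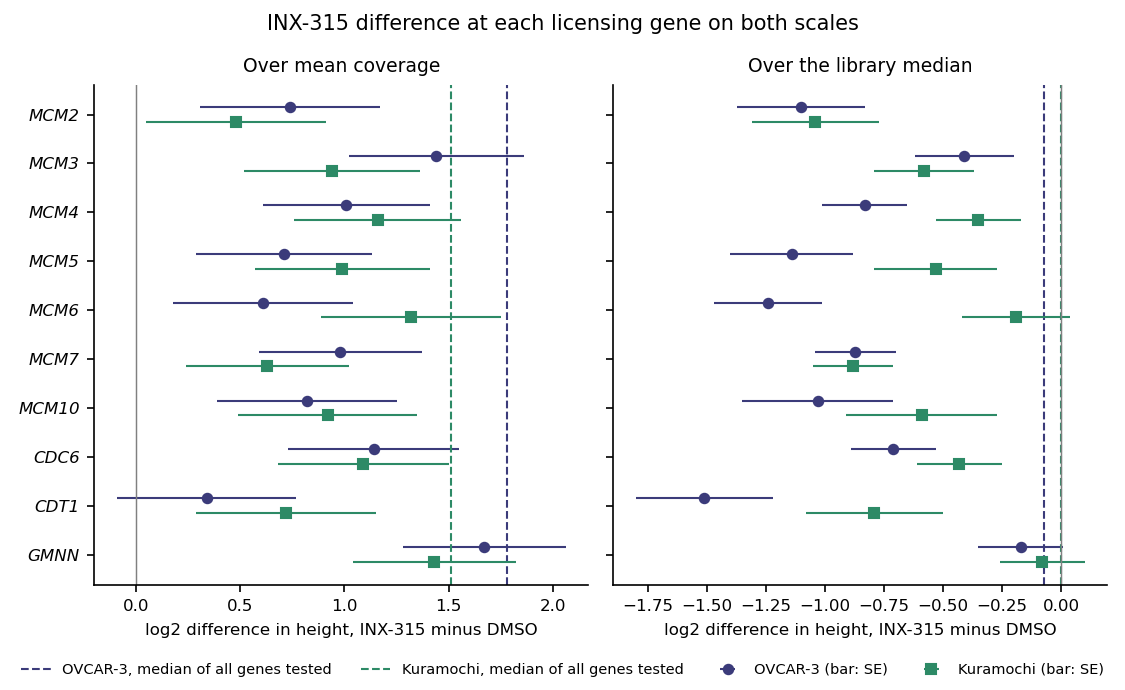
INX-315 minus DMSO difference in log2 Rb height at each of the 10 genes, on the mean-coverage scale (left) and relative to the library median (right). Points are the fitted differences for OVCAR-3 (circles) and Kuramochi (squares), bars are SE, and dashed lines mark the median of all 3761 genes in the line of the same colour. On the left all points lie above 0 and below the dashed line of their line, and on the right all lie below 0, with GMNN nearest to it.

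The difference was also read against promoter height. Genes were split into deciles by their DMSO height in the other line, so that the noise of the libraries compared did not enter the split. In OVCAR-3 the median log2 difference ranged from 1.88 in the fourth decile to 1.55 in the highest, which held MCM4, MCM5, MCM7, CDC6 and GMNN with a median of 1.01. In Kuramochi it ranged from 1.61 in the fifth decile to 1.37 in the highest, which held MCM3, MCM4, MCM7, CDC6 and GMNN with a median of 1.09. Only GMNN, with 1.67 and 1.43, was above the median of its decile, in both lines. This is a description of these libraries and carries no test.

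**Figure D4:**
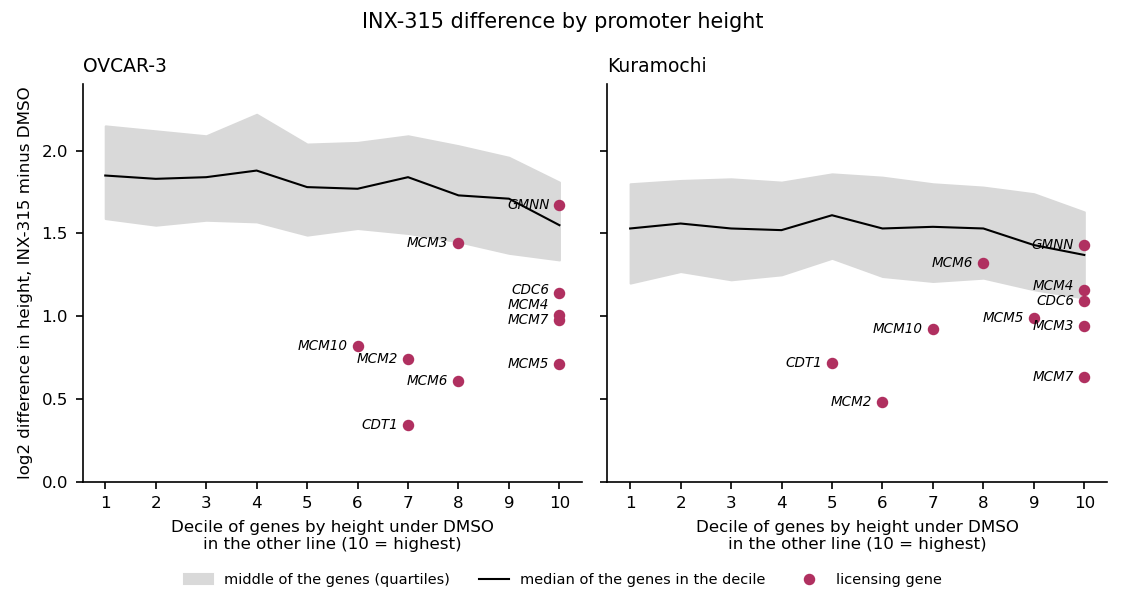
INX-315 minus DMSO difference in log2 height against promoter height. The x axis gives the decile of the 3761 genes by DMSO height in the other line (10 is highest), the black line is the median difference of the genes in each decile, the grey band spans their quartiles and labelled points are the licensing genes. Apart from GMNN, each point lies under the black line.

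Whether INX-315 acted differently in the lines could not be shown for any of the 10 genes. The interaction passed at 0 of 10 and at 0% of all genes on the mean-coverage scale by limma (99 of all genes at an unadjusted p under 0.05), and at 0 of 10 and 0.239% of all genes after centring. The largest estimate was at MCM6, where the Kuramochi difference exceeded that of OVCAR-3 by 0.72 ± 0.61 (SE) on the log2 scale and by 1.05 ± 0.33 (SE, adjusted p = 0.263) after centring.

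Between the lines under DMSO, the share of the 10 that passed on the mean-coverage scale was not above that of all genes. At MCM4 the log2 height was higher in Kuramochi by 1.19 ± 0.40 (SE, limma adjusted p = 0.0457), the single gene of the 10 that passed, against 12.0% of all genes. This call depended on the estimate of the spread, with an adjusted p of 0.241 from the spread of MCM4 alone, under which 0 of the 3761 genes passed (577 at an unadjusted p under 0.05). With listed fold enrichment, which uses the local background, 0 members passed. The number of members that passed was 0 without either OVCAR-3 DMSO library, Kuramochi DMSO replicate 2 or either Kuramochi INX-315 library, 2 without either OVCAR-3 INX-315 library and 4 without Kuramochi DMSO replicate 1. After centring, 4 of 10 passed, against 36.7% of all genes: MCM4 (0.87), CDC6 (0.69) and GMNN (0.60) were higher in Kuramochi and MCM3 (-1.11) was lower. Copy number of each locus in the lines enters these values and cannot be told apart from Rb occupancy here.

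Peaks were also wider with INX-315. The mean width of the licensing peaks was greater under INX-315 at 9 of 10 genes in OVCAR-3 (all but MCM10) and at 10 of 10 in Kuramochi, against 99.0% and 95.6% of all genes. The median width of the list went from 845.2 bp under DMSO to 1039 bp under INX-315 in OVCAR-3 and from 871.5 to 985.5 bp in Kuramochi. Over all genes tested it went from 750.5 to 1301 bp and from 752.5 to 1174 bp. A higher peak is called over a longer stretch, so width and height are not separate evidence.

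The machinery on either side of licensing was read in the same way. Of 19 genes for origin recognition and firing, 14 had a promoter peak in all 8 Rb libraries. All 14 rose over both lines on the mean-coverage scale, against 99.8% of all genes, with a median log2 difference of 1.49, nearer than the licensing genes to the 1.64 of all genes. After centring, 4 of 14 fell relative to the median and 1 rose, against 15.5% and 9.04% of all genes. With the spread of each gene alone 1 fell and 0 rose, against 143 and 85 of the 3761 genes. At an unadjusted p under 0.05 in either direction it was 5 of 14, against 912 of the 3761. Highest in mean log2 height were CDC7 (7.60), the kinase that triggers firing of the loaded helicase, DONSON (6.87), a helicase assembly factor, and ORC1 (6.86), the largest subunit of the origin recognition complex. CDC7 heights were 88.9 and 85.7 with DMSO against 179 and 212 with INX-315 in OVCAR-3. In Kuramochi CDC7 had 157 and 200 with DMSO against 405 and 551 with INX-315, and its centred difference over both lines was -0.39 ± 0.12 (SE, limma adjusted p = 0.0270). Lowest of the 14 were TICRR (5.65), CDC45 (5.73) and ORC4 (5.81).

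Of the 5 partners that lacked a peak somewhere, each had its gaps mainly under DMSO, where peak lists were shorter throughout. Over all protein-coding genes, 5253 to 7779 had a promoter peak in a DMSO library and 11029 to 12950 in an INX-315 library. ORC5 had a peak in 1 of 4 DMSO libraries and 4 of 4 INX-315 libraries, with heights from 12.0 to 35.7. GINS3, GINS4 and MTBP lacked a peak only in OVCAR-3 DMSO replicate 1. DBF4B, a second activator of CDC7, had a peak in 0 of 4 DMSO and 3 of 4 INX-315 libraries, with heights from 14.8 to 38.0. A missing peak says that the caller's threshold was not reached and not that Rb was absent, and no test was made on presence in groups of 2.

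A further list held 7 genes outside licensing that are tied to the MCM proteins or geminin by family or only by name. Of these, 5 had a peak in all 8 Rb libraries, namely MCM3AP (mean log2 height 6.10), MCM9 (5.85), MCM8 (5.73), MCIDAS (5.49) and MCMBP (5.18). All 5 rose on the mean-coverage scale, with a median log2 difference of 1.38, and after centring 2 of them were lower by limma, against 15.5% of all genes: MCM9 (-0.50, adjusted p = 0.0647) and MCMBP (-0.56, adjusted p = 0.0672). With the spread of each gene alone 0 of the 5 passed, against 143 lower and 85 higher of the 3761 genes. At an unadjusted p under 0.05 it was 3 of the 5, against 912 of the 3761. MCMDC2 had no peak in any Rb library. GMNC, a relative of geminin used in multiciliated cells, had a peak in 0 of 4 of the shorter DMSO lists and in 3 of 4 INX-315 lists, with heights from 17.3 to 39.2. MCM8 and MCM9, which form a helicase of DNA repair, had heights from 28.3 to 102 and from 26.3 to 119, respectively.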

How the data were processed

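Rb and IgG2a CUT&RUN peak lists of OVCAR-3 and Kuramochi cells were analysed, grouped by the sample labels. The authors trimmed reads, aligned them to hg38 with Bowtie2 (2.3.4.1), removed blacklisted and mitochondrial reads, kept duplicates and called peaks in each library with MACS2 (2.2.7.1) against the IgG2a library of the line at a q-value of 0.05. The deposited columns used were a fold enrichment, the −log10 p-value and the −log10 q-value of each summit, as written by the authors' caller. The deposited summit offset gave the position of each summit, and through it the centres of the windows searched for words. The deposited display score entered no value. Replicates are described as independent cultures, and depth is given by mean coverage. No reads were used here.

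Fold enrichment equals (fragments + 1) / (local background + 1) and the p-value is its Poisson tail. Pairs that returned both within a relative tolerance of 3e-05 gave whole fragments for at least 99.7% of peaks in each Rb library, and a single solution for all 80 licensing peaks. The most frequent background of a library was taken as its mean coverage. Promoters came from 252835 transcript starts of GENCODE release 44, with an overlap of at least 1 bp. A gene took its highest summit, and genes needed a peak in all 8 Rb libraries. Log2 heights were fitted with limma (3.58.1, R 4.3.3; lmFit, eBayes with trend) on the means of the 4 groups, with Benjamini-Hochberg adjustment over 3761 genes and a threshold of 0.1. The prior degrees of freedom were infinite on the mean-coverage scale, so all genes shared 1 trended spread and shifts common to a whole library are not covered by the p-values. Centring on the library median, fixed as an alternative, reversed the direction and is reported in full. The fits were tested on simulated data. Coordinates are hg38, 1-based, from the files and the annotation.

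The members and lists were chosen with earlier results of these data known. Named in the text are all members, opposite-strand genes starting within 2000 bp of a member's start, and from the partner and related lists every gene lacking a peak in some library plus up to 3 with the highest and 3 with the lowest mean height. Alternatives were another value (listed fold enrichment), peak threshold, gene filter, peak choice, promoter width, merged regions, library weights, threshold, list length, replicate block and leaving out each library.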

Additional observations from a re-analysis of the deposited data

How the results depend on the processing

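Scaling decided the direction. Centring each library on the median of the genes tested turned the counts called higher from 10, 8 and 8 (both lines, OVCAR-3, Kuramochi) to 0, with 9, 8 and 3 called lower, and the median log2 difference from 0.92 to -0.76. The single differences became -1.07 (MCM2), -0.49 (MCM3), -0.59 (MCM4), -0.83 (MCM5), -0.71 (MCM6), -0.88 (MCM7), -0.81 (MCM10), -0.57 (CDC6), -1.15 (CDT1) and -0.13 (GMNN). The cause of the shift in the library medians was not tested. The count for both lines stayed between 7 and 10 under every other alternative. With equal list lengths only 7 members could be tested, and all 7 were called higher. The count was 8 with listed fold enrichment, where MCM2 (0.29, limma adjusted p = 0.372) and CDT1 (0.19, 0.576) did not pass. In OVCAR-3 it was 5 with listed fold enrichment, 5 at an adjusted p of 0.05 and 5 with the spread of each gene alone, and in Kuramochi it was 4 with listed fold enrichment. Leaving out 1 library at a time gave 7 to 10 members for both lines, 4 to 8 in OVCAR-3, 3 to 9 in Kuramochi, 0 for the interaction and a median difference of 0.77 to 1.23. The difference between lines under DMSO held for 1 gene, or for 0 with listed fold enrichment, 0 with the spread of each gene alone, 4 after centring and 0 to 4 without 1 library.

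Alternatives on the centred scale, and the spread of each gene alone, were chosen after seeing the data. The 9 genes lower over both lines became 5 with the spread of each gene alone and 7 to 9 without 1 library. The 8 of OVCAR-3 became 5 of 7 with equal list lengths, 0 with the spread of each gene alone and 5 to 8 without 1 library. The 3 of Kuramochi became 0 with the spread of each gene alone and 1 to 4 without 1 library. The spread of each gene alone called 143, 40 and 1 of the 3761 genes lower (both lines, OVCAR-3, Kuramochi). The 4 differing between lines became 3 to 5 without 1 library. For single members on the mean-coverage scale, 161 alternative values kept sign and side of the threshold and 16 lost the call, most of them at CDT1 and MCM2.

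Across genes, same-numbered libraries did not deviate together (correlation of deviations -0.0419 in OVCAR-3 and -0.0079 in Kuramochi). That correlation cannot see a shift common to a whole library. The median log2 height was higher in replicate 2 of each group. It was 4.82 and 5.08 in OVCAR-3 DMSO, 6.51 and 7.08 in OVCAR-3 INX-315, 4.98 and 5.57 in Kuramochi DMSO, and 6.66 and 6.91 in Kuramochi INX-315. Whether the numbers pair the samples is therefore not settled. With a replicate block 10, 9 and 9 members were called higher, and 3 differed between the lines under DMSO. With 2 libraries a group, summits of 9 to 38 fragments at CDT1 limit what can be said of that gene.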
